A study of Mus musculus with 2 samples.

Results

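The Sox genes encode transcription factors that bind DNA through an HMG box, and 7 of them are described here: Sox4, Sox11 and Sox12 of the SoxC group, Sox5 and Sox6 of the SoxD group, and Sox8 and Sox9 of the SoxE group. They are 7 of the 20 genes (19 named Sox, and Sry) that both expression matrices list, among 26100 genes in all. The group was chosen on measured values of these libraries, because Sox8 led the genes of committed myoblasts. The level of Sox8 in those cells, and its contrast with the cells before and after them, is therefore a description and carries no weight as a finding.

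SoxC proteins are activators known from progenitors of nerve, bone and heart, and Sox4 has also been tied to myoblast differentiation. SoxD proteins lack an activation domain of their own, partner with Sox9 on cartilage genes, and in muscle Sox6 represses slow fibre genes. SoxE proteins act in cartilage, testis and neural crest, and Sox8 has been described in the satellite cells of skeletal muscle, the stem cells that rebuild fibres.

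Single cells of 2 mouse cultures were profiled with the 10x Genomics 3′ droplet assay, which counts RNA molecules by unique molecular identifiers (UMIs). The iMPC library held induced myogenic progenitor cells, made from mouse embryonic fibroblasts by MyoD together with a treatment abbreviated F/R/C, kept in medium with F/R/C, and described for the series as a stable clone. The MEF library held mouse embryonic fibroblasts in MEF medium. Both carried the genotype Tg:Pax7-nGFP/C57BL6;DBA2, in which a nuclear GFP reports on Pax7. Ages of the embryos and the times in culture are not given in the sources used here. Each group was 1 library, so no difference had a replicate check and no test was made. Intervals are at 95%, computed exactly from the counts, and hold no variation between cultures. Library and condition cannot be told apart in any comparison of iMPC with MEF.

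iMPC cells were barcodes with at least 8036 UMIs and at most 20% mitochondrial UMIs, which gave 9349 cells, a median of 20846 UMIs and 232728796 UMIs in all. The 6043 MEF cells had a median of 18929 UMIs and 118069653 in all. No UMI minimum was applied to them, so 661 were under the iMPC threshold of 8036, and the lowest held 160 UMIs. The kept cells of the libraries shared 16 barcodes. Within iMPC, 4 sets were read by marker counts. The Pax7 set (at least 1 Pax7 UMI and 0 Myog) held 2180 cells, and Pax7 marks satellite cells. The Myog set (at least 5 Myog and at most 1 Ckm) held 1724 cells, and Myog marks committed myoblasts. The Ckm set (at least 5 Ckm, the muscle creatine kinase of myocytes) held 1037 cells. The Dcn set (at least 5 Dcn, a fibroblast proteoglycan) held 553 cells, of which 110 also met the Pax7 rule, 18 the Myog rule and 18 the Ckm rule. Another 4001 cells met none. Depth moved with the sets, from a median of 18729.5 UMIs in the Pax7 set and 18064 in the Dcn set to 23857.5 in the Myog set and 42148 in the Ckm set. Levels are therefore given as CPM (the UMIs of a gene in a set, scaled to a set total of 1e+06) and, where the depth matters, as UMIs per cell or as the share of cells with a UMI after each cell was thinned to 5000 UMIs. The counts are of molecules at 3′ ends and are not divided by transcript length.

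The sums of satellite cell, myoblast, myocyte and fibroblast markers include genes that define the sets, so part of their order was fixed by the gates. The 9 satellite cell markers summed to 819, 452 and 424 CPM in the Pax7, Myog and Ckm sets. They summed to 405 in the Dcn set and 266 in MEF cells. Of these, Cdh15 was at 172, 169 and 160 CPM in the Pax7, Myog and Ckm sets and Itga7 at 80.1, 90.9 and 143. The 5 committed myoblast markers summed to 324, 5000 and 3776 CPM in the same sets. The 8 fibroblast markers summed to 6349 CPM in MEF cells, 5086 in the Dcn set, 1353 in the Pax7 set and 141 in the Ckm set. The 6 myocyte markers summed to 707 CPM in the Pax7 set, 10648 in the Myog set and 38108 in the Ckm set, and to 3328 in the Dcn set, so the Dcn set was not free of muscle RNA. Its part in the Dcn results was not tested. Defining markers of several cell types in which Sox genes are known were near 0. The 6 chondrocyte markers summed to at most 0.411 CPM in any set and the 6 endothelial markers to at most 0.657, and Sox10, which defines glia, reached at most 0.0454 CPM. Other lists were not at 0. The 4 immune markers summed to 1.38 to 2.71 CPM in the iMPC sets and 3.66 in MEF cells, most of it Cd68 in MEF cells at 3.19, while Ptprc reached at most 0.0216. The 6 glial markers summed to 4.63 CPM in the Pax7 set, 22.3 in the Myog set and 39.0 in the Ckm set, most of it Erbb3, at 35.2 in the last. In the Dcn set they summed to 16.8 CPM, of which S100b gave 11.4. The 5 neuron markers summed to 179 CPM in the Pax7 set, 65.2 in the Myog set and 31.2 in the Ckm set, of which Stmn2 gave 172 in the first, and the 5 smooth muscle markers to 9901 CPM in MEF cells against at most 885 in an iMPC set. In the Dcn set the neuron markers summed to 58.6 CPM, with Snap25 at 20.1 against 6.50 in the Pax7 set. The part of these cell types in the Sox levels was not tested.

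The other 13 genes were close to silent. In the whole libraries the highest was Sox13, also of the SoxD group, with 0.352 CPM over the iMPC cells and 0.398 CPM over the MEF cells. Sox3, Sox14, Sox17 and Sry had 0 UMIs in both libraries, and 6 of the 13 had 3 UMIs or fewer in each. Sox2, the pluripotency and neural progenitor factor, had 48 UMIs in 17 iMPC cells, with up to 9 UMIs in 1 cell, against 35 UMIs in 34 MEF cells with up to 2 in a cell. The iMPC signal of Sox2 was thus held by few cells, and the MEF signal was spread thinly.

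The 250 bases before the RefSeq start are shown for Sox8, the gene that led to the choice of the group, and for Sox4 and Sox11, the members with the most UMIs. The sequences are from RefSeq on GRCm38.p6, on the minus strand in all 3 genes, at chr17:25570687-25570936 for Sox8, chr13:28953700-28953949 for Sox4 and chr12:27342719-27342968 for Sox11. Capitals mark the letters CANNTG, the E-box that MyoD, myogenin and many other bHLH factors can bind.
Sox8: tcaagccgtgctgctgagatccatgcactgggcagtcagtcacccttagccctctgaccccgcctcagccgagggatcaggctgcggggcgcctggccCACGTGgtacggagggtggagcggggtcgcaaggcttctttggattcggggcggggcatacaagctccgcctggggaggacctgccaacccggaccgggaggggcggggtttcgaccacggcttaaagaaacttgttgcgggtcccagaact
Sox4: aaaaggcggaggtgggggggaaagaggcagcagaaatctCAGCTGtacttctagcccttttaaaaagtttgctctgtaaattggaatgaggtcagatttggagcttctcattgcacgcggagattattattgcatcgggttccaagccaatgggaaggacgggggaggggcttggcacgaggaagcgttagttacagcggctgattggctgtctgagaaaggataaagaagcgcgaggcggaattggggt
Sox11: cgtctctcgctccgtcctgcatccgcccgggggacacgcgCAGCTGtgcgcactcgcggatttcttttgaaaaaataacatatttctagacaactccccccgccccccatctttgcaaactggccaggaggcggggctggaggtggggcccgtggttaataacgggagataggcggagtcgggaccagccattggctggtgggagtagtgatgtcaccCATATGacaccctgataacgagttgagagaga
Sox8 held 1 E-box, CACGTG, Sox4 held 1, CAGCTG, and Sox11 held 2, CAGCTG and CATATG. The letters CANNTG stood in 66.2% of 32851 promoter windows of this length and CAGCTG in 13.0% of them, searched on both strands, and every CAGCTG is also a CANNTG. The Sox core letters ACAAT (27.7% of windows) and the Mef2 motif (2.92% of windows) were in none of the 3. CAGCTG was thus present both before Sox11, at 176 CPM in the Myog and 94.2 in the Pax7 set, and before Sox4, at 119 and 278. A match of letters is a description of the window and not a binding site. Of the 7 genes 6 had a window, 11 windows in all, and Sox9 had none in the table.

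Annotation was taken from GENCODE M21 on GRCm38, where all 7 gene identifiers were found. Sox4 (ENSMUSG00000076431) lies at chr13:28948919-28953713 and Sox11 (ENSMUSG00000063632) at chr12:27334264-27342574, and each has a single exon. Sox12 (ENSMUSG00000051817) lies at chr2:152393611-152398063. Sox8 (ENSMUSG00000024176) lies at chr17:25565892-25570686 and Sox9 (ENSMUSG00000000567) at chr11:112782224-112787760. Sox6 (ENSMUSG00000051910) spans 567925 bases at chr7:115470872-116038796. Sox5 (ENSMUSG00000041540) spans 953553 bases at chr6:143828425-144781977 and overlaps 7 other annotated genes, 2 of them on its own strand, so low Sox5 counts could hold reads of these.

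**Figure D1:**
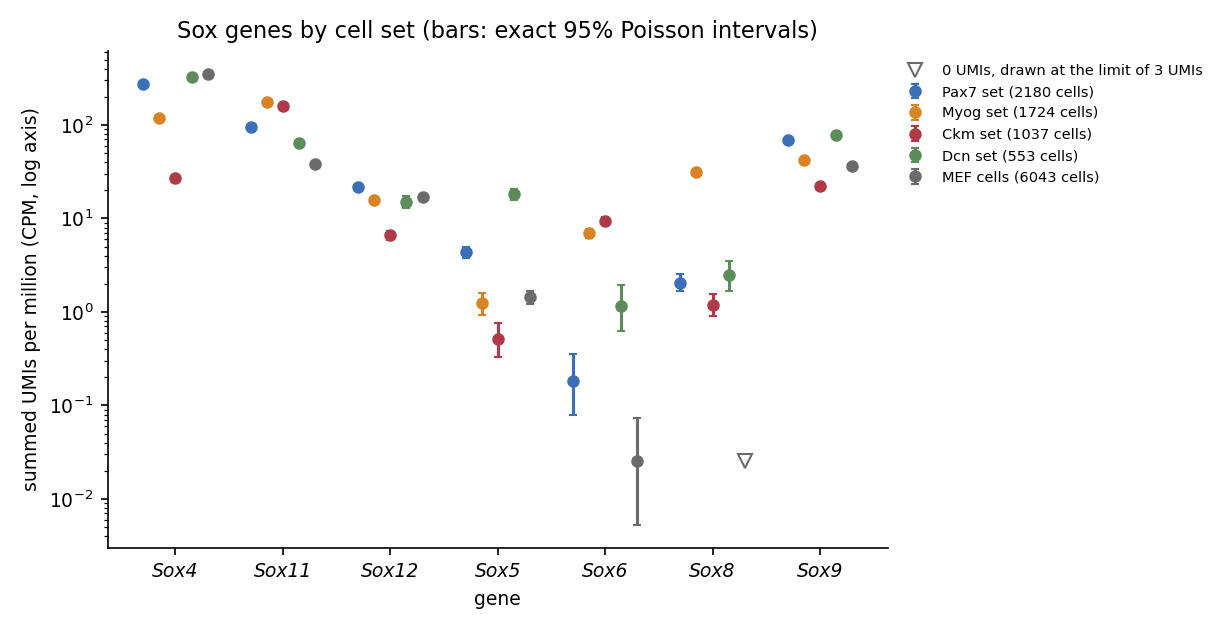
CPM on a log axis for each Sox gene in the 4 iMPC sets and in MEF cells, with exact 95% Poisson intervals (many are smaller than the points). Sox8 stands at 31.6 CPM in the Myog set and at 1.19 to 2.46 CPM in the other 3 iMPC sets, and the open triangle marks its 0 UMIs in MEF cells, drawn at the limit of 3 UMIs.

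Across whole libraries, 4 of the 7 genes reached 10 CPM in at least 1 library and could be called at 2-fold. Sox11 was higher in iMPC and Sox4 lower, and Sox9 and Sox12 lay between. Over all 8605 genes with that level, 14.8% were higher in iMPC and 21.5% were lower, and the median gene had a log2 ratio of -0.17. One call in each direction among 4 genes is too few to read against these shares. Sox5, Sox6 and Sox8 stayed under 10 CPM in both libraries and were not called.

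Sox11 had 131.8 CPM in iMPC and 38.4 in MEF, a log2 ratio of 1.78 (1.73 to 1.82). Sox4 had 175.8 CPM in iMPC and 353 in MEF, a log2 ratio of -1.01 (-1.03 to -0.99), which lies on the 2-fold threshold itself. It was not past 2-fold with cells above 10% mitochondrial UMIs left out, with doublets removed, with cells weighted equally or with the median gene set to 0 (-0.83). Sox9 was at 50.7 CPM against 36.5 and Sox12 at 15.7 against 17.1. Sox5 was at 3.10 CPM against 1.44. Sox6 had 997 UMIs in iMPC (4.28 CPM) against 3 in MEF, a log2 ratio of 7.40 with a counting interval of 5.85 to 9.68. Sox8 had 1984 UMIs in iMPC (8.52 CPM) and 0 in MEF, with an exact upper limit of 0.0312 CPM there. With 3 counts in place of 0 (0.0254 CPM) its log2 ratio was 8.39, with an exact lower limit of 8.09. Sox6 and Sox8 were thus the members close to absent from the fibroblasts, while Sox4, Sox9, Sox11 and Sox12 were present in both libraries.

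SoxC genes gave most of the Sox UMIs everywhere. Their share of the UMIs of the 7 genes was 83.9% in the Pax7 set, 79.1% in the Myog set, 85.2% in the Ckm set, 80.4% in the Dcn set and 91.5% in MEF cells. Which SoxC gene supplied them differed. Sox4 made up 59.2% in the Pax7 set, 30.2% in the Myog set and 12.1% in the Ckm set, and Sox11 made up 20.1%, 44.9% and 70.2% in the same order. In MEF cells Sox4 alone made up 79.1%. The summed level of the 7 genes was 469 CPM in the Pax7 set, 393 in the Myog set, 225 in the Ckm set, 509 in the Dcn set and 447 in MEF cells.

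Sox4 was at 278 CPM (273 to 283) in the Pax7 set, 119 (115 to 122) in the Myog set and 27.2 (25.8 to 28.7) in the Ckm set. It stood at 330 CPM in the Dcn set and 353 in MEF cells, the highest of these 5 levels. In cells thinned to 5000 UMIs a Sox4 UMI was found in 70.05% of the Pax7 set, 38.6% of the Myog set and 10.3% of the Ckm set. Free RNA at the level of the near-empty iMPC barcodes would give such a UMI in 0.450% of cells. Per cell, Sox4 had 5.61 UMIs in the Pax7 set, 3.18 in the Myog set and 1.28 in the Ckm set, although Ckm cells held the most RNA, so the decline was present on both scales. Neighbouring sets in the order of Sox4 levels (MEF, Dcn, Pax7, Myog, Ckm) had intervals that did not overlap. The Dcn and MEF values were nonetheless within 0.10 on the log2 scale, and their order turned in 5 of the alternative settings.

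Sox11 ran the other way at first. It was at 94.2 CPM (91.4 to 97.1) in the Pax7 set, 176 (173 to 180) in the Myog set and 158 (155 to 162) in the Ckm set, against 64.5 in the Dcn set and 38.4 in MEF cells. Against the Pax7 set its log2 ratio in the Myog set was 0.90 (0.85 to 0.96), short of 2-fold, and 1.05 once the median gene was set to 0. From the Myog to the Ckm set the CPM ratio was -0.16 (-0.20 to -0.11), while the UMIs per cell went from 4.73 to 7.43, a log2 ratio of 0.65. A Ckm cell therefore held more Sox11 molecules than a Myog cell on average. With the median gene set to 0 the Ckm to Myog CPM ratio changed sign, to 0.07, so no direction is given for the CPM. Of the Ckm cells 26.9% held 10 or more Sox11 UMIs and 17.6% held none, and 1 cell held 70.

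Sox12, described as the weakest activator of the SoxC genes, was the lowest of the 3 in each set. It was at 21.6 CPM in the Pax7 set, 15.9 in the Myog set, 6.62 in the Ckm set, 15.0 in the Dcn set and 17.1 in MEF cells. Its UMIs per cell were 0.436 in the Pax7 set, 0.425 in the Myog set and 0.311 in the Ckm set. The Myog, Dcn and MEF values had overlapping intervals.

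Sox8 was at 2.07 CPM (1.66 to 2.54) in the Pax7 set, 31.6 (29.96 to 33.2) in the Myog set, 1.19 (0.905 to 1.54) in the Ckm set and 2.46 (1.66 to 3.52) in the Dcn set. The Myog set was high, the other 3 iMPC sets were low and the Pax7 and Dcn intervals overlapped. As UMIs, 1458 Sox8 UMIs lay in 761 of the 1724 Myog cells, at most 9 in a cell, against 91 UMIs in the 2180 Pax7 cells and 58 in the 1037 Ckm cells. After thinning, a Sox8 UMI was found in 16.0% (14.3 to 17.8) of the Myog set, 1.28% of the Pax7 set, 0.771% of the Ckm set, 1.27% of the Dcn set and 0 of the 5759 MEF cells of sufficient depth. The Ckm set had the deepest cells and the lowest CPM. Free RNA of near-empty iMPC barcodes would give 0.0412% of cells, below each of these iMPC shares.

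**Figure D2:**
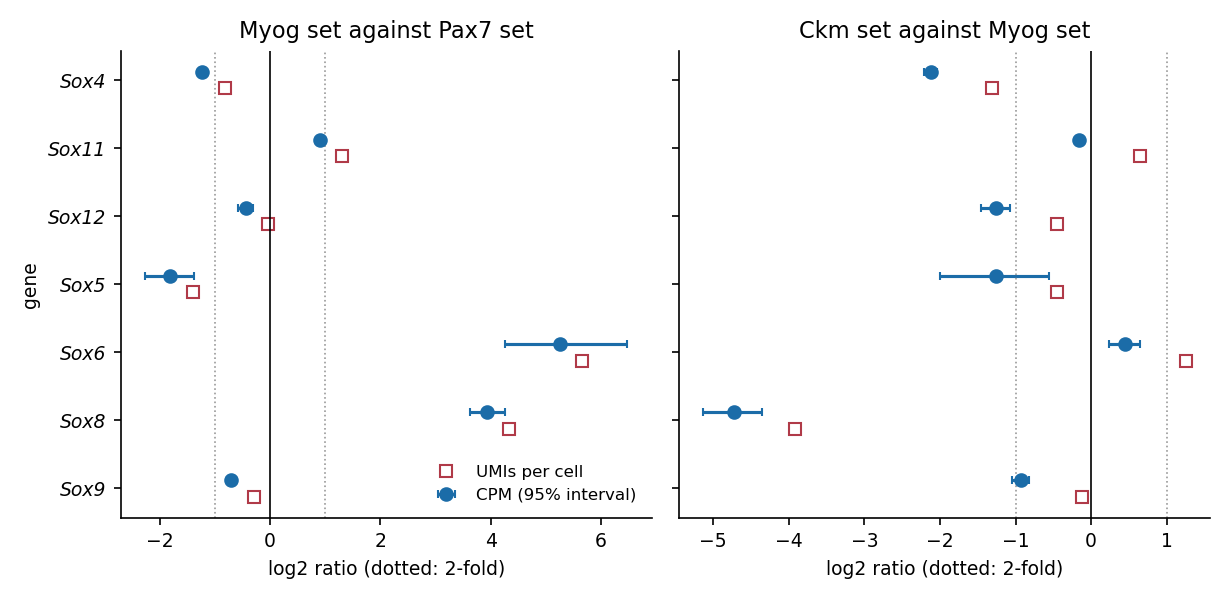
Log2 ratios of the Myog set over the Pax7 set (left) and of the Ckm set over the Myog set (right) for each Sox gene, from CPM with exact 95% intervals (circles) and from UMIs per cell (squares); dotted lines mark 2-fold. Each square lies to the right of its circle, since cells of the later set held more UMIs, and for Sox11 the pair falls on either side of 0 in the right panel.

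For the step from the Pax7 to the Myog set, 5 genes could be called. Sox8 was past 2-fold higher and Sox4 past 2-fold lower, and Sox9, Sox11 and Sox12 lay between. Over all 7932 genes tested, 7.02% were higher and 11.5% lower, and the median log2 ratio was -0.14. The Sox8 ratio was 3.93 (3.63 to 4.25), with 83 genes above it, and follows from the choice of the genes. The Sox4 ratio was -1.23 (-1.27 to -1.18) and the Sox9 ratio -0.70 (-0.79 to -0.62). Sox5 and Sox6 stayed under 10 CPM in both sets.

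For the step from the Myog to the Ckm set, again 5 genes could be called. Sox4, Sox8 and Sox12 were past 2-fold lower, none was past 2-fold higher, and Sox9 and Sox11 lay between. Over all 7332 genes tested, 6.53% were higher and 13.8% lower, and the median log2 ratio was -0.23. The Sox8 ratio of -4.73 (-5.13 to -4.35) was the lowest among the 7332 genes, again as a description, since Sox8 was chosen for its level in the Myog set. The ratios were -2.12 (-2.21 to -2.04) for Sox4, -1.26 (-1.46 to -1.07) for Sox12 and -0.93 (-1.04 to -0.83) for Sox9. Per cell these came to -3.92 for Sox8, -1.32 for Sox4, -0.45 for Sox12 and -0.13 for Sox9, so the lower CPM of Sox9 in Ckm cells went with nearly the same number of molecules per cell, 1.13 against 1.04.

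**Figure D3:**
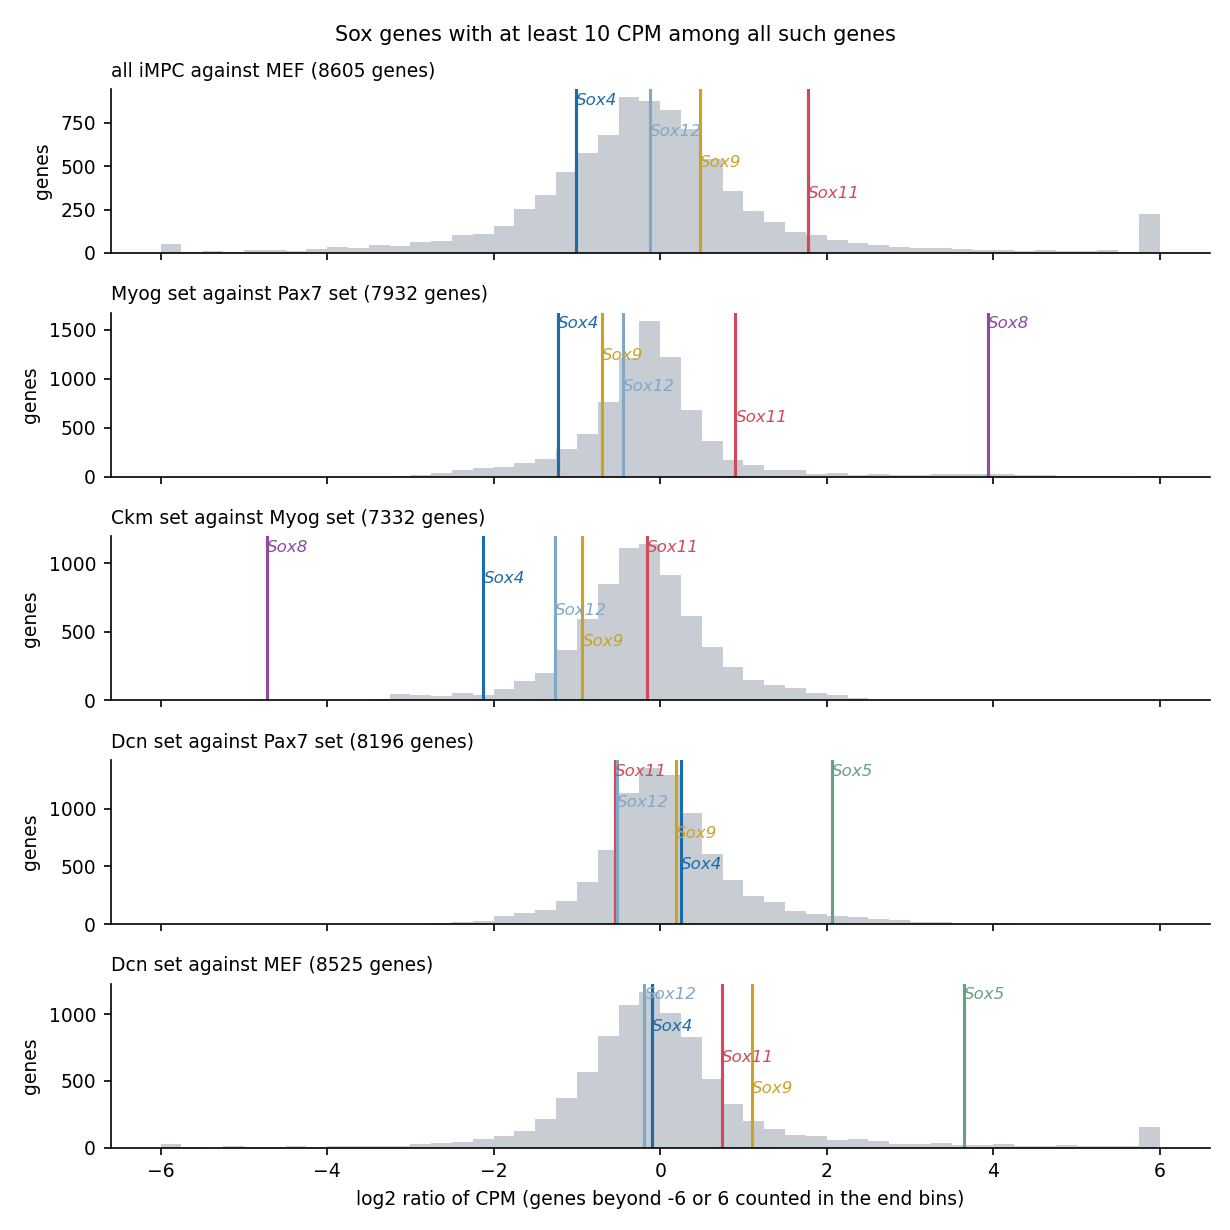
Distribution of log2 CPM ratios over all genes that reached 10 CPM in either of the sets compared (grey bars, number of genes per bin of 0.25) in the 5 comparisons, with the Sox genes that met that level as coloured lines. Sox8 stands at 3.93 in the second panel and at -4.73 in the third, beyond all other genes there, and Sox5 stands at 2.06 and 3.65 in the 2 Dcn panels.

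The passage was then followed cell by cell along the number of Myog UMIs, in cells with at most 1 Ckm UMI, and along Ckm in cells with at least 5 Myog. Sox8 was at 1.93 CPM in cells with 0 Myog UMIs, 3.22 with 1, 7.20 with 2 to 4, 23.1 with 5 to 9, 28.1 with 10 to 19 and 33.9 with 20 or more. Along Ckm it was at 31.6 CPM with 0 to 1 Ckm UMIs, 5.74 with 2 to 4, 1.59 with 5 to 19 and 0.655 with 20 to 99. Most of the decline thus lay at the first Ckm molecules, in cells that still met the Myog threshold. On either side of the thresholds, Sox8 was at 10.0 CPM in cells with 4 Myog UMIs and 16.1 with 5, and at 19.1 CPM in Myog cells with 1 Ckm UMI and 8.16 with 2. The bin of 100 or more Ckm UMIs held 4 cells and is not described.

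Sox4 went down through every bin. It was at 284 CPM with 0 Myog UMIs, 245 with 2 to 4, 150.1 with 10 to 19 and 97.7 with 20 or more, then 42.9 with 2 to 4 Ckm UMIs and 21.6 with 20 to 99. Sox11 went up along Myog from 85.2 to 192 CPM, stood highest in the cells with 2 to 4 Ckm UMIs at 232 (225 to 240), and was at 125 (120 to 130) with 20 to 99. Sox6 was at 0.280 CPM with 0 Myog UMIs, 2.05 with 5 to 9 and 8.62 with 20 or more, and between 8.26 and 11.2 in the 3 Ckm bins from 2 UMIs on. Sox12 was between 20.04 and 23.7 CPM up to 19 Myog UMIs and at 13.4 beyond. Sox9 was at 70.3 CPM with 0 Myog UMIs, 57.4 with 10 to 19 and 35.4 with 20 or more. Sox5 was at 5.83 CPM with 0 Myog UMIs and 0.822 with 20 or more. Sox4, Sox5 and Sox9 were thus highest in cells without Myog, Sox8 in the last Myog bin and Sox11 in the first Ckm bin.

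**Figure D4:**
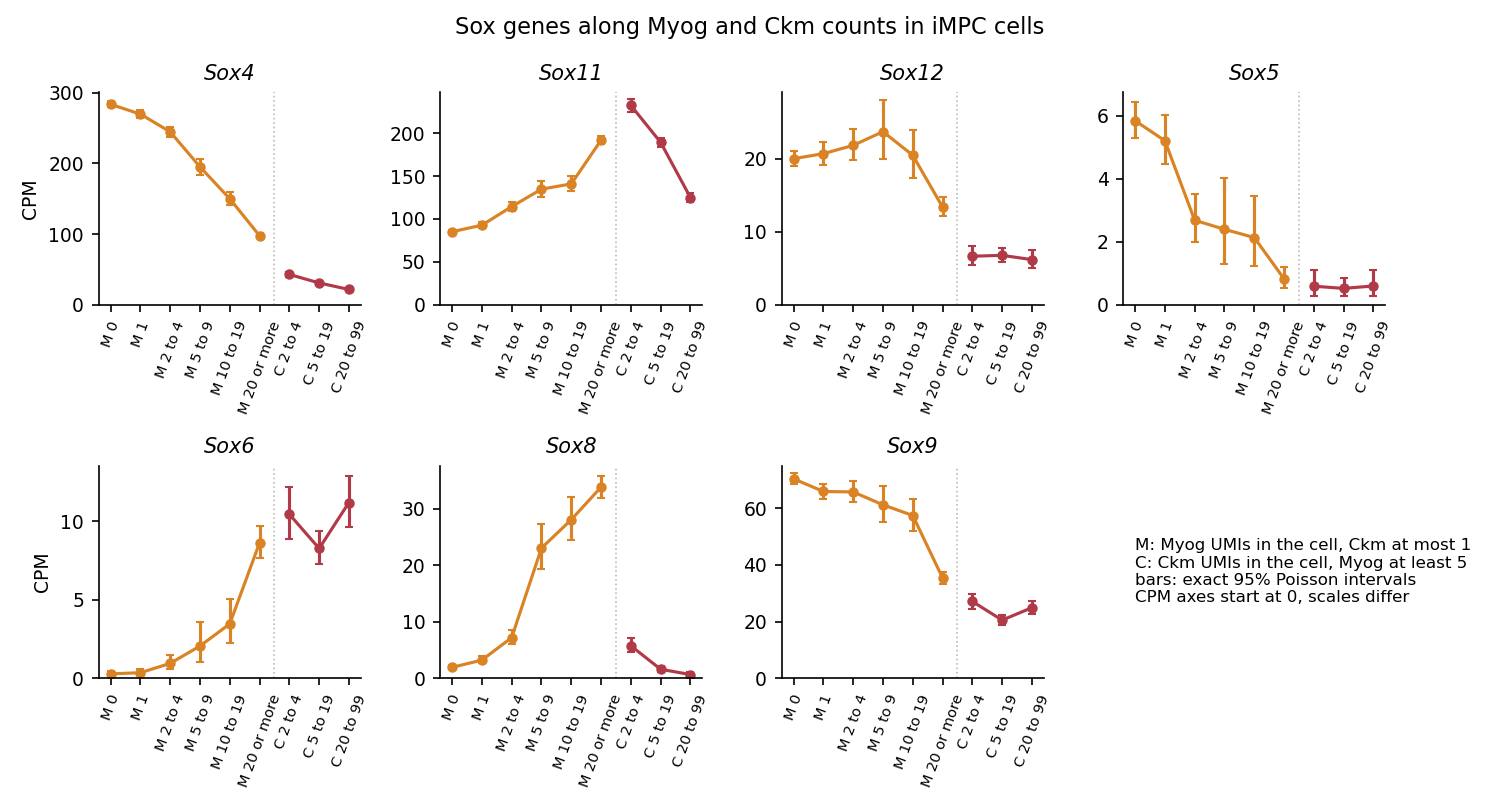
CPM of each Sox gene (linear axes from 0, scales differ) in iMPC cells binned by Myog UMIs with at most 1 Ckm (M, orange) and by Ckm UMIs with at least 5 Myog (C, red), with exact 95% Poisson intervals; bins under 20 cells are not drawn. Sox8 reaches 33.9 CPM in the last Myog bin and stands at 5.74 in the first Ckm bin, where Sox11 stands at 232.

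The 542 cells of the Myog set that also had a Pax7 UMI were close to the rest of that set in Sox8, at 32.0 CPM (29.3 to 34.8), with a Sox8 UMI in 19.2% of them after thinning. Their Sox11 level was 176 CPM, as in the whole Myog set, and Sox4 was higher than in that set, at 169 against 119 CPM. They were deep cells, with a median of 28170.5 UMIs, and 15.5% of them were marked as doublets by Scrublet, against 7.02% of the Myog set and 1.33% of the Pax7 set. The part of doublets in these cells was not tested beyond leaving them out of the sets, which gave a Sox8 ratio of 3.99 between the Myog and Pax7 sets.

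Sox6 was at 0.182 CPM (8 UMIs) in the Pax7 set, 6.95 (6.21 to 7.75) in the Myog set and 9.43 (8.59 to 10.3) in the Ckm set, and at 1.15 CPM (14 UMIs) in the Dcn set. The muscle sets were high and did not overlap with the rest. The log2 ratio of the Myog to the Pax7 set was 5.26 (4.26 to 6.48), and that of the Ckm to the Myog set was 0.44 (0.23 to 0.65), both below the 10 CPM needed for a call. Per cell Sox6 went from 0.186 UMIs in the Myog set to 0.443 in the Ckm set. In the Dcn set, 3 of the 14 UMIs remained once cells meeting another rule were left out, a level of 0.370 CPM in 407 cells.

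Because Sox6 is known to repress slow fibre genes, both fibre lists were read beside it. Of 13 fast fibre genes 13 were past 2-fold higher in the Myog than in the Pax7 set and 13 in the Ckm than in the Myog set, with median log2 ratios of 3.61 and 1.83. Over all genes tested 7.02% and 6.53% were higher in these steps. Of 10 slow fibre genes 7 reached 10 CPM, 6 were higher in the first step and 4 in the second, with medians of 3.83 and 1.19 over those 7. The highest fast genes in the Ckm set were Mylpf at 14976 CPM, Myl1 at 10344 and Tnnc2 at 8142, and the highest slow genes Tnnc1 at 4992, Tnni1 at 4013 and Tnnt1 at 2821. Several slow fibre genes, but not all, were thus higher in these steps, as all 13 fast fibre genes were. The Myog and Ckm sets were drawn on muscle genes, so part of these rises was fixed by the gates. The part of Sox6 in these levels was not tested. Tpm3 was at 189 CPM in the Pax7 set, 112 in the Myog set and 91.3 in the Ckm set, and Tnnt1 and Atp2a2 were short of 2-fold in the second step. Tpm3 and Atp2a2 were not confined to the muscle sets, at 261 and 110 CPM in MEF cells. The mature slow genes Myl2 and Myl3 stood at 2.06 and 1.75 CPM in the Ckm set.

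Sox5 was at 18.1 CPM (15.8 to 20.6) in the Dcn set, 4.34 in the Pax7 set, 1.23 in the Myog set, 0.514 in the Ckm set and 1.44 in MEF cells. The Dcn set was high and stood clear of the rest, while the Myog and MEF intervals overlapped. In 407 Dcn cells that met no other rule it was at 18.8 CPM, and in 110 cells with Pax7 and Dcn it was at 20.1 (14.7 to 26.8). In those 110 cells Sox6 and Sox8 had 0 UMIs, with an exact upper limit of 1.61 CPM. After thinning, 9.95% of the Dcn set had a Sox5 UMI, against 2.48% of the Pax7 set and 0.642% of MEF cells. Among cells without Myog, Sox5 was at 8.52 CPM in those with 0 Pax7 UMIs and 5.22 in those with 1. At the Dcn threshold, cells with 4 Dcn UMIs were at 13.9 CPM and cells with 5 at 5.65, the latter from 4 UMIs in 29 cells.

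Against the Pax7 set, 5 genes could be called in the Dcn set. Sox5 was past 2-fold higher, with a log2 ratio of 2.06 (1.77 to 2.35), and none was past 2-fold lower, where all 8196 genes gave 11.0% higher and 6.77% lower. Against MEF cells, again 5 genes could be called. Sox5 was past 2-fold higher at 3.65 (3.35 to 3.95) and Sox9 at 1.10 (0.998 to 1.20), and none was past 2-fold lower, where all 8525 genes gave 13.0% higher and 12.9% lower. Both comparisons use the same Dcn cells. Against MEF cells Sox11 was at 0.75 (0.64 to 0.86), and Sox4 and Sox12 were at -0.10 and -0.19. With doublets removed the Sox11 ratio was 0.32, outside that counting interval. In the 407 Dcn cells that met no other rule Sox11 was at 54.2 CPM, against 64.5 in the whole Dcn set. Sox6, with 14 against 3 UMIs, was at 5.50 (3.66 to 7.94). Sox8, with 30 against 0, was at 6.60 with 3 counts in place of 0, with an exact lower limit of 6.21. Both were under 10 CPM and not called. Only 15 of the 30 Sox8 UMIs were in the 407 Dcn cells that met no other rule, a level of 1.85 CPM.

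Sox9 was at 78.3 CPM (73.4 to 83.4) in the Dcn set, 68.8 (66.4 to 71.3) in the Pax7 set, 42.2 in the Myog set, 36.5 in MEF cells and 22.1 in the Ckm set. In 110 cells with both Pax7 and Dcn it reached 99.3 CPM (86.8 to 113). Of 13 cartilage genes known to be downstream of Sox9, Sox5 and Sox6, only Col11a1 reached 10 CPM, and it did so in MEF cells at 44.9 CPM against at most 0.739 in the iMPC sets. Acan and Col2a1, the best known of them, were at most at 0.164 and 0.227 CPM in the 4 sets and MEF cells. In the 4 iMPC sets Sox9 was thus present while the 13 genes together summed to at most 1.89 CPM.

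For SoxC, 4 genes reported as targets were read. Cald1 encodes the actin-binding caldesmon, and Sox4 has been reported to activate it in myoblasts. It was at 537 CPM in the Pax7 set, 126 in the Myog set and 56.1 in the Ckm set. In the Dcn set it was at 984 CPM and in MEF cells at 1930, the order of the Sox4 levels reported above. The fibroblast markers Col1a1, Col1a2, Pdgfra and Thy1 had the same ranking of the sets, and Dcn, Col3a1, Lum and Postn did not. Tead2, a DNA-binding partner of YAP, was at 55.1, 46.4 and 19.5 CPM in the 3 myogenic sets. It was at 31.9 CPM in the Dcn set and 41.5 in MEF cells. In the same order, the neuronal tubulin Tubb3 was at 69.9, 45.8, 33.2, 41.2 and 25.3 CPM. Dcx, a microtubule protein of young neurons, was at 0.772, 9.07, 17.4, 1.81 and 0.00847 CPM. Unlike Cald1, Tead2, Tubb3 and Dcx thus did not follow the order of the Sox4 levels. Dcx was highest in the Ckm and Myog sets, as was Sox11, though not in the same order. Whether a Sox gene bears on any of the 4 genes was not tested. Of 3 that reached 10 CPM, 1 was lower and none higher in the Myog than in the Pax7 set, where 11.5% of all genes tested were lower. Of 4 that did, 2 were lower and none higher in the Ckm than in the Myog set, where 13.8% of all genes tested were lower.

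Cells within a set also differed by cell cycle. A cell was counted as cycling where Mki67 or Top2a had a UMI after thinning, which held for 51.2% of the Pax7 set, 37.4% of the Myog set, 8.39% of the Ckm set, 16.3% of the Dcn set and 9.74% of MEF cells. Cycling cells were deeper in each set, for example a median of 21990 against 15773 UMIs in the Pax7 set.

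Sox4 was lower in the cycling cells of the Pax7 set (248 against 320 CPM), the Dcn set (248 against 353) and MEF (270 against 365). It was higher in the cycling cells of the Myog set (149 against 97.7) and the Ckm set (67.7 against 22.8). Sox11 was higher in the cycling cells of each, by 0.73 (0.63 to 0.82) on the log2 scale in the Pax7 set and by 0.17 (0.11 to 0.24) in the Myog set. Sox5 was at 2.22 CPM in cycling and 7.42 in other Pax7 cells, and Sox9 at 57.6 and 85.1. Sox12 was at 21.3 CPM in cycling and 12.1 in other Myog cells. Sox6 was at 3.60 CPM in cycling and 9.26 in other Myog cells, and Sox8 at 35.4 and 28.9. In the Myog set, Sox6 was thus higher in the cells without a Mki67 or Top2a UMI, which were shallower, at a median of 22009.5 against 27664.5 UMIs, and Sox8 was present in both. Whether cycling cells of a set stood at an earlier stage of it was not tested.

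**Figure D5:**
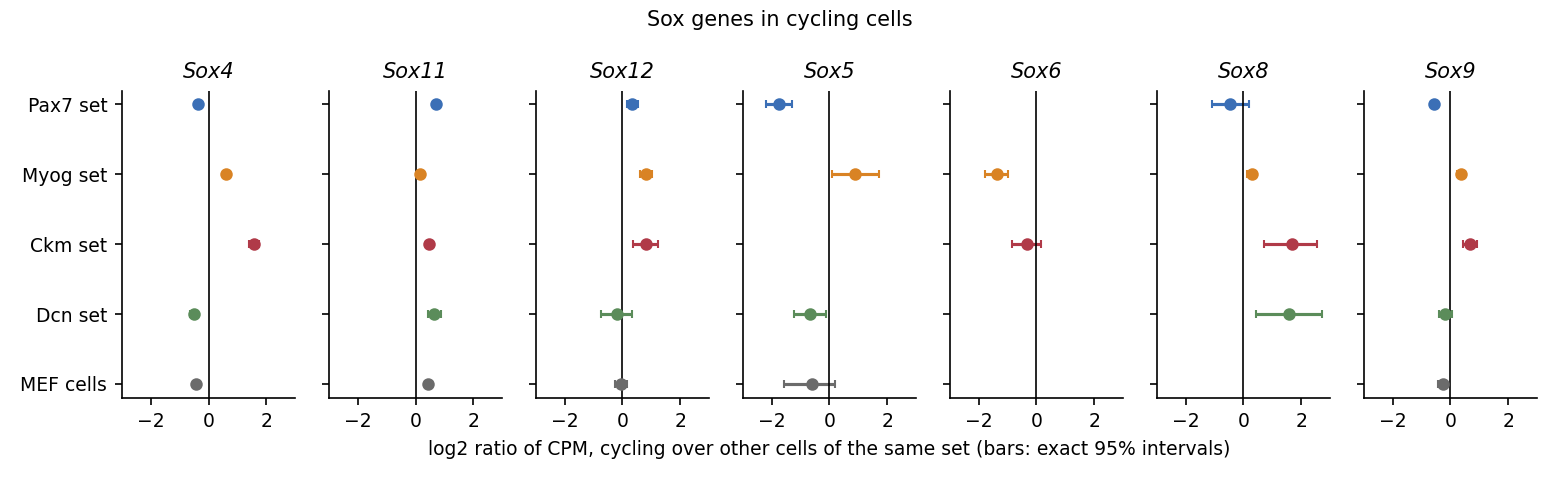
Log2 ratio of CPM in cycling over other cells of the same set, with exact 95% intervals, for each Sox gene with at least 30 UMIs in that set. Sox4 lies left of 0 in the Pax7 and Dcn sets and MEF cells and right of 0 in the Myog and Ckm sets, at 0.61 and 1.57.

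In single iMPC cells thinned to 5000 UMIs, co-detection of 2 genes was described by the log2 odds ratio, which shares the library and the gates with the results above. Sox8 was found with Myog at 2.62 (2.25 to 2.999; 313 cells against 161.2 for independence) and with Myod1 at 2.06 (1.73 to 2.39). Sox6 was found with Myog at 3.08 (2.37 to 3.87), and Sox5 with Dcn at 3.04 (2.57 to 3.51). Sox4 and Myog were found apart, at -1.82 (-1.95 to -1.70). Among the members, Sox4 and Sox9 were found together at 1.02 (0.87 to 1.17) over all iMPC cells, at 0.59 (0.27 to 0.91) within the Pax7 set, 0.96 (0.59 to 1.33) within the Myog set and 0.69 (0.43 to 0.96) in MEF cells. Sox4 and Sox11 were found apart in iMPC at -0.45 (-0.57 to -0.32) and together in MEF at 0.75 (0.49 to 1.02). Within the Pax7, Myog and Ckm sets their value was -0.18 (-0.46 to 0.11), -0.15 (-0.44 to 0.14) and -0.02 (-0.65 to 0.59). Within the Dcn set they were found apart, at -0.94 (-1.60 to -0.27). Other pairs were also found together in MEF, such as Sox9 and Sox11 at 0.58 (0.30 to 0.85) and Sox4 and Sox12 at 0.58 (0.24 to 0.94).

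The genes whose thinned counts followed a Sox gene most closely over the 9349 iMPC cells were, for Sox8, Purb (Pearson r = 0.22), Olfml2b (0.22) and Rbm24 (0.20). For Sox11 they were Myog (0.25), Cdkn1c (0.25) and Actc1 (0.23), and for Sox4 they were Actg1 (0.32), Col18a1 (0.32) and Col3a1 (0.31). In 5759 MEF cells Sox4 was followed by Col1a2 (0.22), Cdkn1a (0.21) and H3f3b (0.21). The other members had no gene at 0.2. These are weak correlations of sparse counts across cells of 1 library, given as a description.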

How the data were processed

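The values are raw UMI counts, 1 per gene and barcode, as deposited by the authors. Cell Ranger 4.0, Seurat 3.2.3 and GRCm38.p6 are named per the submitters' processing notes. The iMPC matrix lists uncalled barcodes, and the MEF matrix lists 6113. How the latter were selected is not given in the sources used here. The 26100 genes listed in both were used.

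iMPC barcodes were kept at 10% of the 99th percentile of UMIs of the top 10000 barcodes, and cells above 20% mitochondrial UMIs were dropped in both libraries. Counts were summed per set. Intervals are exact Poisson for levels, exact conditional for ratios and odds ratios, and Clopper-Pearson for shares, all at 95%, and cover counting error only. A gene with 0 UMIs was set to 3 counts for its ratio, and for Sox8 the exact lower limit is given beside it. A gene was called at 2-fold with at least 10 CPM in the higher set. For shares of cells, each cell was thinned to 5000 UMIs, which left out 284 MEF cells and 0 iMPC cells. Doublets were kept. Scrublet, run for 1 alternative, marked 3.60% of iMPC cells. In MEF it marked 0.0165%, so the 302 highest scores of 6043 were removed there instead. Near-empty iMPC barcodes served as profiles of free RNA, at 1 to 100 and at 200 to 600 UMIs. The method was tested on simulated counts. Python 3.11.15, numpy 2.4.6, scipy 1.17.1, pandas 2.3.3 and scanpy 1.11.5 were used.

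The members, gene lists and sets were chosen with earlier results of these data known. Other genes were named by rule: the other Sox genes, the 3 of each list highest in CPM, and up to 3 genes per member with the highest Pearson r of at least 0.2 over cells, on log1p counts thinned to 5000 UMIs, among genes with a UMI in at least 2% of them. Further genes of the lists were named after their values were seen. Alternatives covered UMI and mitochondrial thresholds, doublets, scaling, thinning, gates, free RNA and the thresholds of a call. The protocol text of the MEF sample repeats that of iMPC, so its treatment label, MEF medium, was followed.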

Additional observations from a re-analysis of the deposited data

Results flagged for a closer look

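Sox UMIs were also present in iMPC barcodes that were not kept as cells. In 48846 barcodes of 200 to 600 UMIs, with 21254587 UMIs in all, Sox4 stood at 43.8 CPM, Sox5 at 0.659, Sox6 at 4.80, Sox8 at 3.999, Sox9 at 21.1, Sox11 at 72.6 and Sox12 at 13.0. They were listed because these barcodes enter no comparison of the report and each level was above the 0.141 CPM that a count of 0 would allow. Sox6 was at 4.28 CPM (4.02 to 4.56) in the kept iMPC cells, and its interval in these barcodes, 3.91 to 5.83, overlapped with that. In barcodes of 1 to 100 UMIs Sox6 was at 1.83 CPM. Each of the other 6 was higher in the kept cells than in the barcodes of 200 to 600 UMIs. Taking this profile out at 2.06% of a cell's UMIs left the Sox8 ratio of the Myog to the Pax7 set at 3.99.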

How the results depend on the processing

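Of 522 recomputed log2 ratios 393 stayed within the counting interval of the value reported, 129 moved and none of a called gene changed sign; 16 of genes short of 2-fold or under 10 CPM did. The Sox8 ratio of the Myog to the Pax7 set, 3.93, moved to 3.62 with cells thinned to 5000 UMIs, to 2.97 with sets drawn on thinned counts and to 4.35 with the 1 to 100 UMI profile taken out at 10%, and was between 3.66 and 4.23 otherwise. Of 190 counts of members past 2-fold 167 were equal to the count reported or within a factor of 1.5 of it, and 23 moved further. Only the latter are listed here, so a change such as from 3 to 2 is not. For iMPC against MEF, the count lower went from 1 to 0 (Sox4) under 9 settings: at most 10% mitochondrial UMIs, doublets removed, totals without mitochondrial and ribosomal genes, the mean of each cell's CPM, thinning, either free RNA profile, scaling by the median gene ratio and a 3-fold threshold. The count higher went from 1 to 2, adding Sox8, with the reduced totals or at 5 CPM. For Myog against Pax7, the count higher went from 1 to 2 with the reduced totals or at 5 CPM (Sox6), and with the scaling or at 1.5-fold (Sox11), and to 0 at 50 CPM. The count lower went from 1 to 2 (Sox9) with gates on thinned counts or at 1.5-fold, and to 0 at 3-fold. For Ckm against Myog, the count lower went from 3 to 1 (Sox4) at 50 CPM. For Dcn, the count higher than Pax7 went from 1 to 0 at 50 CPM, and that higher than MEF from 2 to 1 at 50 CPM (Sox9) or at 3-fold (Sox5). The cause of each move was not tested. Of 105 shares of cells 98 moved with the depth of thinning or a 2-UMI minimum. Low counts limit Sox5, Sox6 and Sox8 outside the sets where they are high. No paired analysis was possible because each group was 1 library.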

Other observations

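The 4001 iMPC cells that met no rule held 18956 Sox4 UMIs (221 CPM), 10232 Sox11 UMIs (119 CPM), 5131 Sox9 UMIs (59.8 CPM) and 1535 Sox12 UMIs (17.9 CPM). Sox8 was at 4.22 CPM (3.80 to 4.68), Sox5 at 3.45 and Sox6 at 2.40 in them. Each of these 7 levels lay between that of the Pax7 set and that of the Myog set. Of the 48 Sox2 UMIs of the iMPC library, 29 were in 9 of these cells, with up to 7 in a cell.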
